A study of Rattus norvegicus with 16 samples.

Results

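The 10 genes Acly, Acaca, Fasn, Scd, Fads1, Fads2, Elovl1, Agpat1, Gpam and Mogat1 encode enzymes that build fatty acids, modify them and attach them to glycerol. They were taken by symbol from the RefSeq accession of each transcript probe, with the probe of highest mean processed signal over the 16 arrays standing for a gene. This gave 10 members among 26565 measured features, with 12 probes in all and 2 probes each for Fasn and Elovl1. All 10 were well above background on all 16 arrays, so all 10 passed the filter on dim probes, and none was saturated.

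The arrays measured total RNA of the right hippocampus of 16 male Wistar rats, 1 rat per array and 4 rats per group. A cannula was fixed over the right amygdala at 5 weeks of age, and a single infusion of 1 µl followed 5 days later. The groups Fe day 5, Fe day 15 and Fe day 30 received 100 mM ferric chloride (FeCl3) in saline at pH 2.2 and were collected that many days after the infusion. Control rats received the saline at pH 2.2 without iron and were collected on day 15. Iron salts in the amygdala leave rats with spontaneous recurrent seizures, and this is used to model posttraumatic epilepsy. Per the series text recurrent seizures were seen in the Fe rats and none in the controls, but the number of seizures per rat was not measured. Only Fe day 15 matches the controls in time since infusion, so for Fe day 5 and Fe day 30 iron, age and interval cannot be told apart. The hippocampus was homogenised whole and was not the infused site.

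Fatty acid synthesis in the cytosol starts from citrate, which is split into acetyl-CoA, carboxylated to malonyl-CoA and assembled into the saturated chain palmitate. Desaturases then introduce double bonds and elongases lengthen the chain, and acyltransferases place the products on glycerol to form phospholipids and neutral glycerides. The brain makes much of its own fatty acid, is rich in long polyunsaturated chains, and uses very long saturated chains in the sphingolipids of myelin.

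The members differed little between Fe and control rats, and no member passed the test. Elovl1 and Acly were the members that stood higher in Fe rats at all 3 times, by 1.11- to 1.24-fold and 1.09- to 1.16-fold. Agpat1 and Mogat1 stood lower at all 3 times, by 1.11- to 1.15-fold and 1.15- to 1.19-fold. Fads1 was 1.23-fold lower at days 5 and 15 and level with the controls at day 30, and Gpam was 1.34-fold lower at day 15. Fasn, Acaca, Scd and Fads2 were within 1.11-fold of the controls at each time, with Acaca lower at all 3 times, by 1.02- to 1.09-fold.

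Limma, a linear model of log2 signals over all features and arrays, called 0 of 10 members at a Benjamini-Hochberg adjusted p under 0.05 in each of the 6 comparisons between groups and in the F-test over the 4 groups. Among all features it called 0% at days 5 and 15 against control and 0.00753% (2 features) at day 30, and 0% in the other comparisons. Array weights, and fits of the 2 compared groups alone, also called 0 members. At Fe day 5 the values of 4 of 10 members did not overlap those of the controls, against 7.84% of all features, with 1 member higher (2.75% of features) and 3 lower (5.09%). At Fe day 15 this held for 5 of 10, against 9.84%, with 2 higher (4.11%) and 3 lower (5.73%), and at Fe day 30 for 0 of 10, against 6.25%. The members were chosen with earlier results of these data known, so these counts and those that follow are descriptions.

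An unadjusted p under 0.05 was reached by 4 members at day 5, against 10.3% of features, 2 of them higher (4.06%) and 2 lower (6.28%). At day 15 it was 4, against 11.5%, with 1 higher (5.17%) and 3 lower (6.33%), and at day 30 it was 0, against 7.77%. The F-test had 2 members under that level, Gpam and Fads1, against 8.34% of features. Between Fe times 1 member was under it at day 15 against day 5 (7.2% of features), 2 at day 30 against day 15 (6.49%) and 1 at day 30 against day 5 (2.96%).

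The 5 members whose Fe day 15 and control values did not overlap are shown with the 250 bases before their annotated start. They were picked by that separation alone, which 9.84% of all features shared, and none of them was called. The sequences are from RefSeq on the build GRCr8, given 5′ to 3′ on the strand of the gene, and the array's own design build was not used for positions. Acly lies at chr10:85963632-85963881 on the minus strand, and Fads1 at chr1:216252442-216252691 on the plus strand. Elovl1 lies at chr5:137247905-137248154 on the plus strand, Agpat1 at chr20:4147869-4148118 on the minus strand and Gpam at chr1:264175912-264176161 on the minus strand. Capitals mark matches to CCAAT (the CCAAT box) and GGGCGG (the GC box, a site for Sp1-type factors), or to their reverse complements.
Acly: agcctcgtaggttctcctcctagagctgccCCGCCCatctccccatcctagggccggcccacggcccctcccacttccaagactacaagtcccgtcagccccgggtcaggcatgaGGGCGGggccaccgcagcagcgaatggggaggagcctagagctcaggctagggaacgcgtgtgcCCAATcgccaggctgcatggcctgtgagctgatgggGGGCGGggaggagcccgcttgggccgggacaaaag
Fads1: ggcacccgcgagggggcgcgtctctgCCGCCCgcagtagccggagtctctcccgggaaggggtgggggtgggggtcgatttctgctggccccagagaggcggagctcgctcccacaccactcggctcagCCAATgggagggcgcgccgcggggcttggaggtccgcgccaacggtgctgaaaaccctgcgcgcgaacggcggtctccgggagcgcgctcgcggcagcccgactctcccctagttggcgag
Elovl1: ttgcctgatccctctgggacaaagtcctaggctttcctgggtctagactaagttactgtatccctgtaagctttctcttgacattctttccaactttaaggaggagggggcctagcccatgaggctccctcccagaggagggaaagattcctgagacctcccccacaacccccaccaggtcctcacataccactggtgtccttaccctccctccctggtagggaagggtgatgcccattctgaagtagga
Agpat1: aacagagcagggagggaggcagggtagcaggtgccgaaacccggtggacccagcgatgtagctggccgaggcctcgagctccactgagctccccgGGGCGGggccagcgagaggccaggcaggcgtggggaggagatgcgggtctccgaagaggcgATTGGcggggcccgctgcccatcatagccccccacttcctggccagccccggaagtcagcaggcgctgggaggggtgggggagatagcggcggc
Gpam: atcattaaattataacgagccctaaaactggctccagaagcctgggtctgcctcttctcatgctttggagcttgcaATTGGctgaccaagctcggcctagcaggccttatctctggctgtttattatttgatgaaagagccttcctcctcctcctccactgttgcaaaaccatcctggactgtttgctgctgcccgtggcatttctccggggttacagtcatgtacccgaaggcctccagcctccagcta

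Windows of 300 bases, 250 before and 50 after the start, were available for 8 of the 10 members (not Acaca and Fasn) and were searched on both strands. CCAAT was found in 5 of 8, against 37.5% of all 33469 RefSeq promoter windows of that length, and GGGCGG in 4 of 8, against 33.1%. TCACNCCAC, a consensus of the sterol regulatory element read by SREBP factors, was in 0 of 8 and in 1.12% of all windows. CACGTG, the E-box, was in 0 of 8 and in 6.42%. No CCAAT match overlapped a GGGCGG match in the windows of the members. With positions counted back from the start, GC boxes of Acly began at −220, −135 and −35 and its CCAAT box at −71. Fads1 had a GC box at −224 and a CCAAT box at −121, and Agpat1 had them at −155 and −94. Gpam had a CCAAT box at −174, and neither motif was in the Elovl1 window. The base composition of the 300-base windows ranged over the 8 members from 39.7% G and C in Mogat1 to 74.3% in Fads1, with 52.7% in Elovl1 and Gpam, 69.0% in Acly and 71.3% in Agpat1, against a median of 51.7% over all windows.

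Levels below are scaled signals, which are the processed intensity of a probe brought to a common 75th percentile of 732.3 on every array. They are in arbitrary units and can be compared between arrays for one gene but not between genes. A log2 difference is the Fe group mean minus the control mean with its standard error (SE) from limma over all 16 arrays. Adjusted p-values are Benjamini-Hochberg values over all 26565 features within a comparison. The 3 comparisons with control share the same 4 control arrays.

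Citrate cleavage and chain assembly came first in the pathway. Acly, ATP citrate lyase, makes the cytosolic acetyl-CoA from which fatty acids and sterols are built. Its scaled signal was 22000, 24200, 18200 and 21100 at Fe day 5 (replicates 1 to 4), 20100, 21300, 20300 and 21100 at Fe day 15, 20900, 22400, 17800 and 19200 at Fe day 30, and 17600, 18100, 18500 and 19000 in controls. All 4 rats at Fe day 15 lay above all 4 controls, and 3 of 4 did so at Fe day 5 and at Fe day 30, where replicate 3 lay within the control range both times. The log2 difference was 0.22 ± 0.089 at day 5 (limma adjusted p = 0.47), 0.18 ± 0.089 at day 15 (adjusted p = 0.45) and 0.13 ± 0.089 at day 30 (adjusted p = 0.7). These differences missed the threshold.

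Acaca, acetyl-CoA carboxylase alpha, forms malonyl-CoA in the committed step of the pathway. Its probe was dim, at 94.8, 96.2, 99.2 and 76 at Fe day 5, 95.6, 95.6, 99.8 and 87.4 at Fe day 15, 95.4, 101, 77.6 and 83.4 at Fe day 30, and 89.6, 102, 100 and 95.6 in controls. The groups overlapped at each time, with Fe day 5 replicate 4 and Fe day 30 replicate 3 the lowest arrays. The log2 differences were −0.09, −0.03 and −0.12 at days 5, 15 and 30 with an SE of 0.099 each (limma adjusted p of 0.75, 0.93 and 0.74).

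Fasn, fatty acid synthase, assembles palmitate. It read 9670, 8850, 9760 and 9860 at Fe day 5, 11000, 9870, 10200 and 9230 at Fe day 15, 9860, 8820, 8230 and 10300 at Fe day 30, and 10400, 10100, 9850 and 9050 in controls. All groups overlapped. At day 15 the log2 difference was 0.03 ± 0.083 with a 95% interval from −0.15 to 0.21 (limma adjusted p = 0.91), and it was −0.05 at day 5 and −0.09 at day 30 (adjusted p of 0.86 and 0.78). A second Fasn probe gave −0.12, −0.09 and −0.15 ± 0.091 at days 5, 15 and 30, so the probes differ in direction at day 15.

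Among the desaturases, Scd, stearoyl-CoA desaturase, places the first double bond into saturated chains to make oleate and palmitoleate. Its level was 698, 591, 746 and 559 at Fe day 5, 841, 652, 794 and 511 at Fe day 15, 595, 484, 545 and 788 at Fe day 30, and 714, 644, 728 and 557 in controls. The Fe day 15 rats spanned the controls on both sides, and this gene had the widest spread of the members at that time, with an SD of 0.33 on the log2 scale, against 0.18 in controls (n = 4 each). The log2 differences of −0.03, 0.06 and −0.15 at days 5, 15 and 30 were smaller than their SE of 0.17 (limma adjusted p of 0.96, 0.92 and 0.82).

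Fads1 and Fads2, the fatty acid desaturases of polyunsaturated chains, lie next to each other in the synthesis of arachidonic and docosahexaenoic acid, with Fads2 acting on the dietary precursors first. Fads1 read 3570, 2890, 3680 and 3150 at Fe day 5, 3540, 3530, 3450 and 2800 at Fe day 15, 4140, 3180, 4790 and 4130 at Fe day 30, and 4000, 4010, 4620 and 3690 in controls. At days 5 and 15 all 4 Fe rats lay below all 4 controls, by a margin of only 3680 against 3690 at day 5, while at day 30 3 rats lay within or above the control range and replicate 2 below it. The log2 difference was −0.30 ± 0.13 at day 5 (limma adjusted p = 0.47), −0.29 ± 0.13 at day 15 (adjusted p = 0.4) and −0.02 ± 0.13 at day 30 (adjusted p = 0.97). Between Fe times Fads1 stood 0.28 ± 0.13 higher at day 30 than at day 15 (limma adjusted p = 0.76) and 0.28 ± 0.13 higher than at day 5 (adjusted p = 1). A difference between Fe times was therefore not called either.

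Fads2 read 222, 215, 205 and 175 at Fe day 5, 184, 220, 178 and 165 at Fe day 15, 256, 195, 241 and 190 at Fe day 30, and 209, 171, 215 and 203 in controls. The groups overlapped at each time. The log2 differences were 0.04, −0.10 and 0.14 at days 5, 15 and 30 with an SE of 0.12 each (limma adjusted p of 0.93, 0.8 and 0.77). At day 15 its 95% interval ran from −0.36 to 0.17 and that of Fads1 from −0.57 to −0.02.

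**Figure D1:**
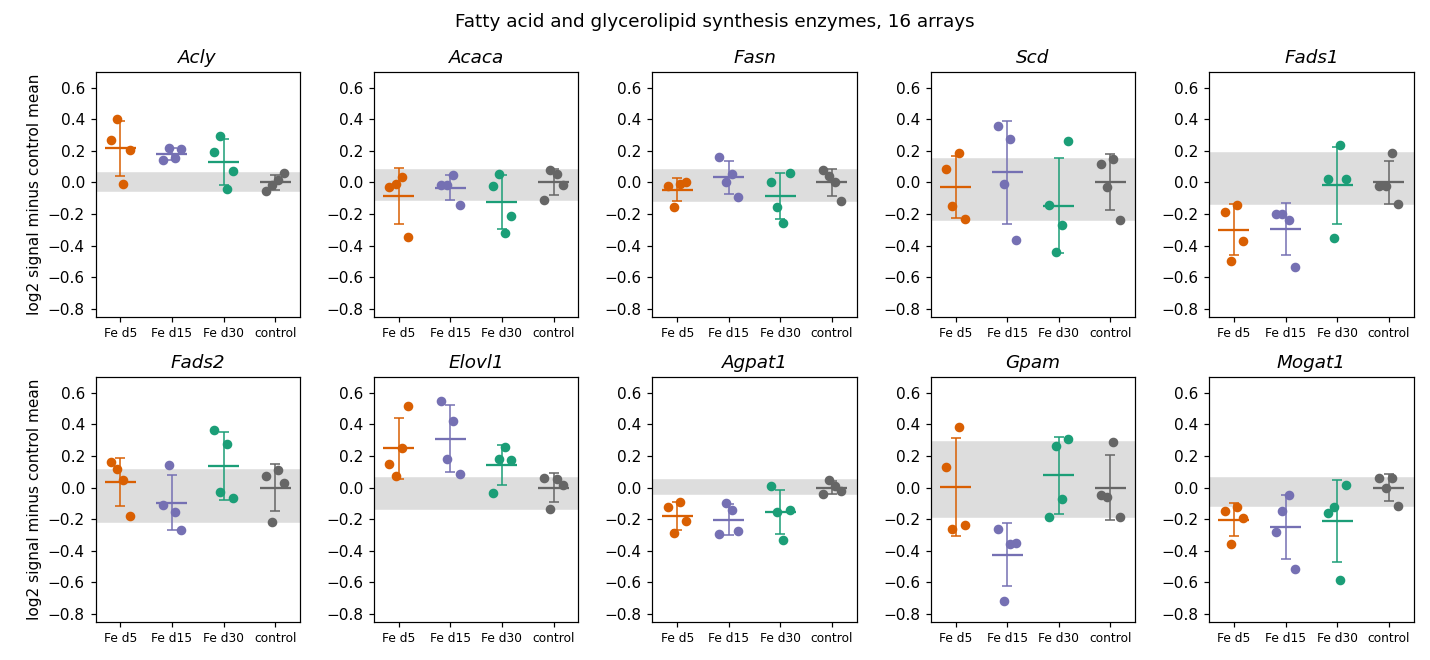
Difference in log2 signal from the control mean (vertical axis) for each of the 10 enzymes on each of the 16 arrays. Points are rats, horizontal lines are group means, whiskers are 1 SD (n = 4) and the grey band is the range of the 4 controls. The Fe day 15 points of Acly and Elovl1 lie above the band and those of Fads1, Agpat1 and Gpam below it, while those of Scd and Fads2 lie on both sides of it, and Fasn and Acaca each have 3 inside it, with 1 point above for Fasn and 1 below for Acaca.

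Elovl1, known from mouse and human as the elongase of saturated and monounsaturated very long chains used in sphingolipids, had the largest upward difference. Its level was 1290, 1230, 1390 and 1670 at Fe day 5, 1700, 1320, 1560 and 1240 at Fe day 15, 1140, 1320, 1400 and 1310 at Fe day 30, and 1220, 1060, 1210 and 1180 in controls. All Fe day 5 and Fe day 15 rats lay above the controls, the lowest of them at 1230 against a highest control of 1220, and 3 of 4 did so at Fe day 30. The log2 difference was 0.25 ± 0.12 at day 5 (limma adjusted p = 0.48), 0.31 ± 0.12 at day 15 (adjusted p = 0.36) and 0.14 ± 0.12 at day 30 (adjusted p = 0.73). The second Elovl1 probe gave 0.23, 0.30 and 0.14 ± 0.11 at days 5, 15 and 30. On that probe Fe day 5 overlapped the controls, with replicate 2 at 825 against controls of 700 to 848. Its Fe day 15 values all lay above the controls. Both probes read the same extracts, so the second repeats the measurement and not the animals. With array position as a term the value turned to −0.05 at day 15 (limma adjusted p = 0.94) and to −0.28 at day 30, a fit in which the effect of that position rests on 1 Fe day 5 array.

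The 3 rats with the highest Elovl1 level were also the 3 with the highest oligodendrocyte markers, a list of 13 measured myelin and oligodendrocyte genes of 14 listed. An array's marker score is the median, over the genes listed, of the log2 difference between that array and the average control. It was 0.65 in Fe day 5 replicate 4, 0.57 in Fe day 15 replicate 1 and 0.44 in Fe day 15 replicate 3, against −0.28 to 0.18 in controls. All 13 were above background on all 16 arrays, and their summed scaled signal was 131000 to 250000 at Fe day 5, 167000 to 247000 at Fe day 15, 148000 to 204000 at Fe day 30 and 156000 to 196000 in controls. Of the 13, 12 stood higher at day 5, 10 at day 15 and 7 at day 30 than in controls. Limma called 0 of these markers, with 2 at an unadjusted p under 0.05 at day 15, against 11.5% of all features. Their part in the Elovl1 difference was not tested. In whole hippocampus, more cells of a type and more RNA per cell cannot be told apart.

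**Figure D2:**
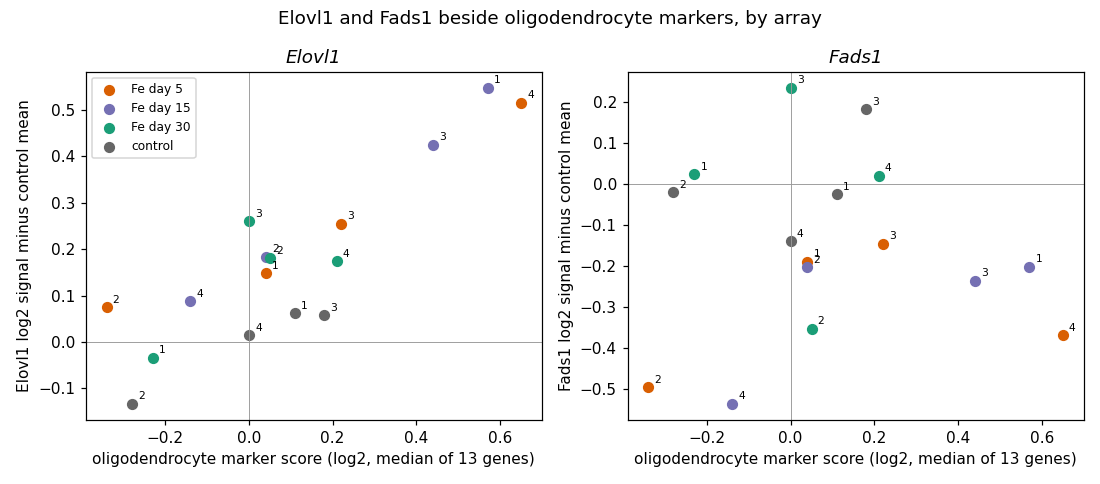
Difference in log2 signal from the control mean of Elovl1 (left) and Fads1 (right) against the oligodendrocyte marker score (median log2 difference of 13 genes), 1 point per array with its replicate number. The 3 arrays with scores of 0.44 to 0.65 carry the 3 highest Elovl1 values. The lowest Fads1 values, 2800, 2890 and 3150, are in arrays with scores of −0.14, −0.34 and 0.65.

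In the glycerolipid branch Gpam, the mitochondrial glycerol-3-phosphate acyltransferase, adds the first acyl chain to glycerol. Its level was 229, 174, 273 and 178 at Fe day 5, 174, 127, 163 and 164 at Fe day 15, 184, 251, 199 and 259 at Fe day 30, and 203, 201, 256 and 183 in controls. All 4 Fe day 15 rats lay below all 4 controls, and the rats at Fe days 5 and 30 overlapped the controls. At day 15 the log2 difference was −0.42 ± 0.17 (limma adjusted p = 0.37), the largest of the members, with a 95% interval from −0.78 to −0.07. It was 0.01 ± 0.17 at day 5 and 0.08 ± 0.17 at day 30 (adjusted p of 0.99 and 0.91). Gpam stood 0.50 ± 0.17 higher at Fe day 30 than at Fe day 15, without overlap, as held for 3.29% of features, and this was the lowest unadjusted p of a member in any comparison (limma adjusted p = 0.67).

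Agpat1, known from human and mouse as an acyltransferase that adds the second chain and yields phosphatidic acid, read 17800, 15900, 18100 and 16700 at Fe day 5, 15800, 18100, 17500 and 16000 at Fe day 15, 19400, 17400, 15400 and 17500 at Fe day 30, and 18800, 20000, 19500 and 19100 in controls. All Fe rats of days 5 and 15 lay below all controls, and 3 of 4 did so at day 30. The log2 difference was −0.18 ± 0.078 at day 5 (limma adjusted p = 0.48), −0.20 ± 0.078 at day 15 (adjusted p = 0.37) and −0.16 ± 0.078 at day 30 (adjusted p = 0.65). The 4 controls differed by an SD of only 0.04 on the log2 scale.

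Mogat1, known from mouse and human as a monoacylglycerol acyltransferase that makes diacylglycerol, read 615, 532, 625 and 595 at Fe day 5, 561, 614, 657 and 475 at Fe day 15, 609, 624, 454 and 688 at Fe day 30, and 710, 677, 708 and 627 in controls. All 4 rats at Fe day 5 lay below the controls by a narrow margin, and 3 of 4 did so at days 15 and 30. The log2 differences were −0.20, −0.25 and −0.21 at days 5, 15 and 30 with an SE of 0.12 each (limma adjusted p of 0.54, 0.46 and 0.67).

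**Figure D3:**
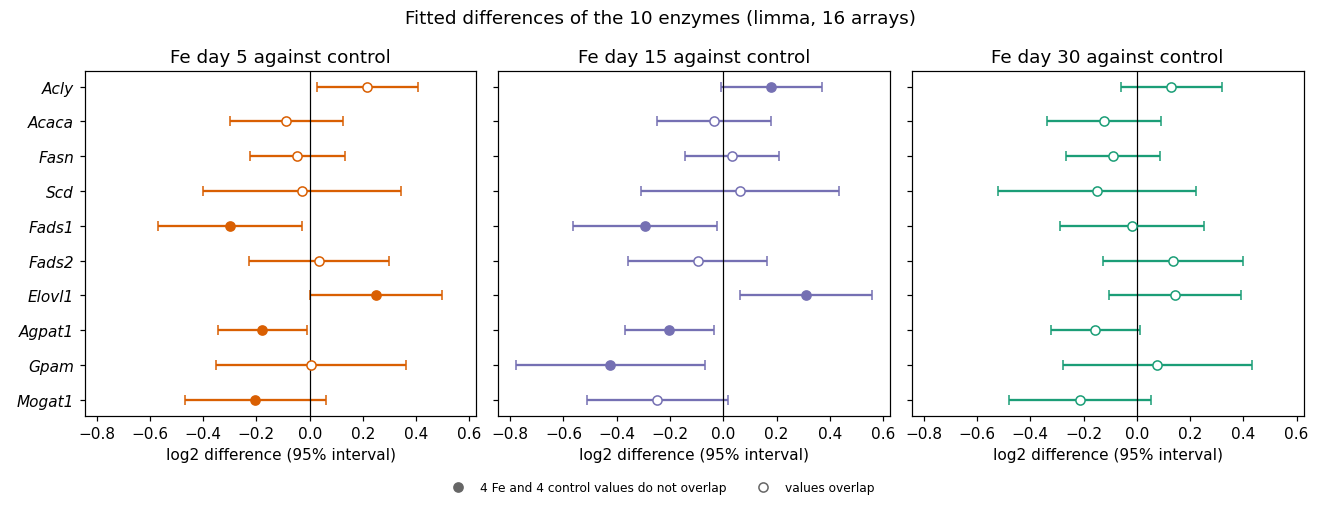
Fitted log2 difference from control with its 95% interval (horizontal axis) for the 10 enzymes at Fe day 5, Fe day 15 and Fe day 30, from limma on 16 arrays. Filled points mark enzymes whose 4 Fe and 4 control values do not overlap, 4 at day 5, 5 at day 15 and 0 at day 30, and the lowest bound of any interval is −0.78, for Gpam at day 15.

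The counts at an unadjusted p under 0.05 moved with single arrays. With one array left out at a time it was 1 to 4 at day 5 (5.11% to 14% of all features), 1 to 6 at day 15 (8.27% to 13.3%) and 0 or 1 at day 30 (5.2% to 10.9%). At day 5 it was 1 when replicate 2 or 4 of Fe day 5, or replicate 2 or 3 of the controls, was left out, and 2 without control replicate 1 or 4. At day 15 it was 1 without control replicate 2, and 2 without control replicate 3 or replicate 1 or 4 of Fe day 15. It was 5 without Fe day 5 replicate 2 or 3 or Fe day 15 replicate 3, and 6 without Fe day 30 replicate 3. At day 30 it was 1 without Fe day 30 replicate 1 or 4. With slide as a fixed block the counts were 1, 2 and 2 at days 5, 15 and 30, against 4.18%, 8.92% and 5.7% of features. The members without overlap at day 30 became Elovl1 and Agpat1 without replicate 1 (10.2% of features), Acly without replicate 3 (10.5%) and Mogat1 without replicate 4 (16.1%).

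Each time held 4 members above and 6 below the control mean, where 45.8%, 50.3% and 46.6% of features were above it at days 5, 15 and 30. Their median log2 difference was −0.037 at day 5, −0.065 at day 15 and −0.053 at day 30, against −0.017, 0.001 and −0.013 over all features. The highest and lowest bounds of the 95% intervals over the 30 tests were 0.56 and −0.78, so larger changes than these lie outside every interval. The members' values spread more in Fe rats, with a median SD of 0.17, 0.17 and 0.19 on the log2 scale at days 5, 15 and 30, against 0.089 in controls. Over all features the medians were 0.18, 0.18 and 0.19, against 0.13 in controls.

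Fe day 15 replicate 4 had the lowest value of its group for 7 of 10 members (31.9% of all features), Fe day 5 replicate 2 for 6 (31.5%) and Fe day 30 replicate 3 for 5 (45.2%), and control replicate 4 was lowest in its group for 5 as well (23.4%). Beside this, the score of 10 microglia markers was 1 in Fe day 15 replicate 4 and 0.99 in Fe day 30 replicate 3, against −0.08 to 0.05 in controls. The score of 8 markers of hippocampal principal neurons was −0.75 and −0.58 in the same 2 rats, against −0.06 to 0.02 in controls, and all 8 were above background on all 16 arrays. Markers of choroid plexus and meninges were high in Fe day 5 replicates 2 and 3 and Fe day 30 replicate 3, with choroid plexus scores of 1.89, 3.6 and 7.13, against −0.4 to 0.52 in controls. Meningeal scores in those 3 rats were 4.55, 2.71 and 3.37, against −0.07 to 0.08 in controls. Fe day 15 replicate 4 was above all controls in both lists too, at 1.25 for choroid plexus and 1.34 for meninges. The summed signal of the 8 choroid plexus markers was 874 to 23600 at Fe day 5, 687 to 2250 at Fe day 15, 631 to 224000 at Fe day 30 and 499 to 1260 in controls. The 4 blood markers measured, of 6 listed, were Hbb, Alas2, S100a8 and S100a9. Their score was 0.47 to 2 at Fe day 5, 0.51 to 1.55 at Fe day 15 and −0.4 to 1.82 at Fe day 30, against −0.31 to 0.26 in controls. By this score all Fe rats of days 5 and 15 lay above all controls, though single blood markers did not all do so. At Fe day 5 Hbb lay above all controls in 2 of 4 rats, and Alas2 in 3, with 1 below all controls. The log2 differences of the 4 markers at that time ran from 0.66 for Hbb to 2.56 for S100a8. Limma called 0 of these markers. Their summed signal was 974 to 3080 at Fe day 5, 1030 to 2940 at Fe day 15, 718 to 3440 at Fe day 30 and 843 to 1150 in controls, and 3 of the 4 were above background on all 16 arrays. The part of these cell types in the members' values was not tested.

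Without Fe day 5 replicates 2 and 3 and Fe day 30 replicate 3, 5 members did not overlap the controls at day 5, where Fe values of only 2 rats were left and 23.9% of all features were as separate. The count was then 1 (Acly) at day 30, against 10.5% of features, and the day 15 and control arrays were not touched. Leaving out arrays of a group can only reduce overlap, and limma called 0 members. An unadjusted p under 0.05 was reached by 2, 6 and 1 members at days 5, 15 and 30 in that fit, against 8.95%, 15% and 7.44% of features.

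The arrays were spread over 7 slides, and all 4 controls lay at the same position on their slides, where 3 Fe day 5 arrays but no array of Fe day 15 or Fe day 30 lay. A slide held both a control and an Fe array for 1 Fe day 5, 3 Fe day 15 and 2 Fe day 30 rats. Within slides Elovl1 stood above the control by 0.45 at day 5, by 0.68, 0.13 and 0.41 at day 15, and by 0.39 and 0.12 at day 30 (log2). Agpat1 differed by −0.17 at day 5, by −0.34, −0.11 and −0.12 at day 15, and by −0.38 and −0.15 at day 30. Every Fe array of these 6 pairs lay above all 4 controls for Elovl1 and below all 4 for Agpat1, so the direction within slides adds nothing for these genes. Control replicates 2 and 3 each serve in 2 of the pairs, and each pair sets the control position against another.

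Fads1 differed within slides by −0.35 at day 5, by −0.18, −0.39 and −0.1 at day 15, and by 0.26 and −0.16 at day 30 (log2). Gpam differed by −0.19 at day 5, by −0.2, −1.01 and −0.17 at day 15, and by −0.01 and 0.02 at day 30. Acly differed by 0.26 at day 5, by 0.16, 0.2 and 0.09 at day 15, and by −0.02 and 0.06 at day 30. Mogat1 differed by −0.26 at day 5, by −0.27, −0.2 and 0.07 at day 15, and by −0.58 and −0.04 at day 30. At day 15 the values of Fads1, Gpam and Acly did not overlap those of the controls, so the direction of these pairs was fixed. The same holds for the day 5 pairs of Fads1 and Mogat1, and these directions add nothing. With slide as a fixed block the day 15 values were −0.29 for Fads1, −0.49 for Gpam, 0.16 for Acly, −0.21 for Agpat1 and 0.41 for Elovl1, and none was called. Position and group cannot be told apart for most arrays.

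Other genes of the pathway came from 4 lists, and limma called 0 of their genes in each of the 3 comparisons with control. Of 21 measured of 28 listed enzymes of fatty acid supply, elongation and activation, 7 stood higher and 14 lower at day 5, 10 and 11 at day 15, and 5 and 16 at day 30. An unadjusted p under 0.05 was reached by 1 at each time, against 10.3%, 11.5% and 7.77% of all features at days 5, 15 and 30. Where genes of the 4 lists are said not to overlap the controls, 7.84%, 9.84% and 6.25% of all features were as separate at these times. Fads6, a desaturase-family protein, stood at −0.33 ± 0.12 at day 5 (limma adjusted p = 0.47) and −0.28 ± 0.12 at day 30, and its Fe and control values did not overlap at either time. Slc25a1, the mitochondrial carrier that exports citrate for Acly, stood at 0.17 ± 0.079 at day 15 (limma adjusted p = 0.43), with 4 of 4 Fe rats above all controls. Scd2, the stearoyl-CoA desaturase that is prominent in rodent brain, was at −0.08, 0.06 and −0.06 ± 0.087 at days 5, 15 and 30, and the elongase Elovl5 at −0.23, −0.22 and −0.07 ± 0.14. The Elovl5 probe was very dim, with a scaled signal of 24.9 to 42.4 in controls.

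Regulators of fatty acid synthesis, 20 measured of 24 listed, stood higher in 8 and lower in 12 at each time. Of them 1, 1 and 0 reached an unadjusted p under 0.05 at days 5, 15 and 30, against 10.3%, 11.5% and 7.77% of all features. Srebf2 encodes the SREBP factor that acts mainly on sterol genes. Its level was 445, 441, 461 and 378 at Fe day 15, against 491, 647, 485 and 489 in controls. All 4 Fe rats lay below all controls, the difference being −0.28 ± 0.11 (limma adjusted p = 0.36). Mbtps1, the protease that makes the first cut in SREBP activation, stood at −0.20 ± 0.078 at day 5 (limma adjusted p = 0.47). Srebf1 was not matched to a probe here.

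Other glycerolipid enzymes, 16 measured of 22 listed, stood higher in 3 and lower in 13 at day 5, in 7 and 9 at day 15, and in 5 and 11 at day 30. An unadjusted p under 0.05 was reached by 3, 0 and 1 of them at days 5, 15 and 30, against 10.3%, 11.5% and 7.77% of all features. Their median was −0.12 at day 5, against −0.017 over all features. Gpat4, a glycerol-3-phosphate acyltransferase of the endoplasmic reticulum, read 1480, 1330, 1340 and 1290 at Fe day 5, against 1560, 1550, 1590 and 1520 in controls. The groups did not overlap, at −0.19 ± 0.065 (limma adjusted p = 0.47). Lpin3, a phosphatidate phosphatase, stood at 0.89 ± 0.37 at day 5 (limma adjusted p = 0.47), with 3 of 4 Fe rats above all controls.

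Head group enzymes, which turn phosphatidic acid and diacylglycerol into phosphatidylcholine and its relatives, had 14 measured of 19 listed, with 5 higher and 9 lower at day 5, 6 and 8 at day 15, and 4 and 10 at day 30. An unadjusted p under 0.05 was reached by 0, 2 and 1 at days 5, 15 and 30, against 10.3%, 11.5% and 7.77% of all features. Pemt, which methylates phosphatidylethanolamine to phosphatidylcholine, had the lowest p of any pathway gene. Its level was 457, 481, 492 and 465 at Fe day 15, against 702, 639, 653 and 616 in controls. All 4 Fe rats lay well below all controls, at −0.46 ± 0.081 (1.38-fold lower, limma adjusted p = 0.082), which missed the threshold. At Fe day 30 it was 558, 532, 520 and 595, again below all controls, at −0.24 ± 0.081 (limma adjusted p = 0.56). Pcyt1a, the rate-setting enzyme of the other route to phosphatidylcholine, read 215, 192, 200 and 203 at Fe day 15, against 169, 159, 163 and 174 in controls. It lay above all controls at 0.28 ± 0.1 (limma adjusted p = 0.34).

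**Figure D4:**
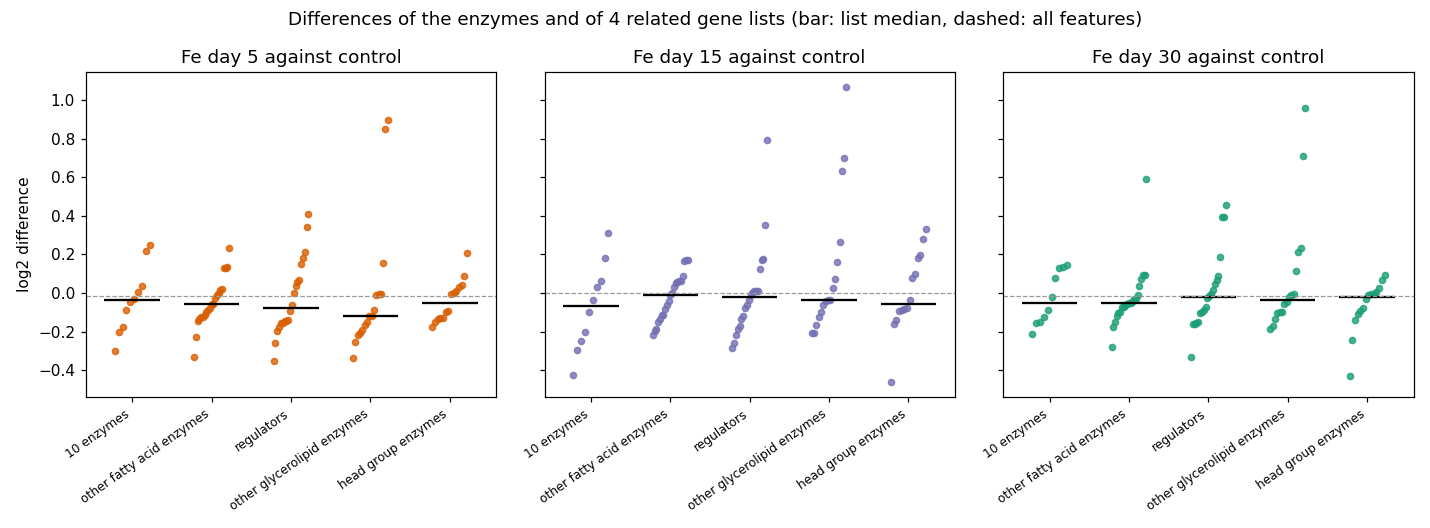
Log2 differences from control (vertical axis) of the 10 enzymes and of the measured genes of 4 related lists at Fe day 5, Fe day 15 and Fe day 30. Points are genes, black bars are list medians and the dashed line is the median of all 26565 features. The medians of all 5 lists lie within 0.12 of 0, and none of the points was called by limma.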

How the data were processed

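RNA of 16 rat hippocampi was measured on Agilent 1-colour arrays labelled with Cy3, 1 array per rat. Per the submitters' processing notes the scans were read with Agilent Feature Extraction 9.5, and the deposited scanner files give, per the file headers, a background-subtracted processed intensity for each spot on a linear scale. The authors' series table holds the same intensity values as the scanner files, in 100% of entries at a tolerance of 1e-06 and was not run separately. No step between arrays is recorded in these files. The array files carry no sequencing depth, and the number of arrays limits the precision.

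From these values log2 processed intensity, which the authors had not log-transformed, was reduced by the 75th percentile of each array, which lay between 553.4 and 924.5. Between 74.2% and 81.6% of transcript spots were well above background. Spots with outlier flags were left out, a probe was kept if every array of 1 or more groups marked it well above background (30548 of 40890 usable probes), and the brightest probe stood for a gene. Symbols came from RefSeq accessions and a RefSeq table on GRCr8, which matched 15080 of 16116 RefSeq mRNA probes. Of the 26565 features 9588 had a symbol. A one-way limma 3.58.1 model in R 4.3.3 on all 16 arrays had 12 residual degrees of freedom. Tests were two-sided, and a call needed an adjusted p under 0.05. On data simulated for Fe day 15 against control over 26565 features it recovered 24 of 50 features changed 1.5-fold and 39 of 50 changed 2-fold. The simulated noise was independent between features and equally wide in all groups, unlike the measured arrays. No change smaller than 1.5-fold was simulated, and the largest of the members was 1.34-fold, so the recovery of such changes is not known. Arrays of a group correlated at 0.977 to 0.995 (Pearson's r across features).

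The 10 members were named in every comparison with control. From each pathway list the 2 genes of lowest unadjusted p over those comparisons were named, and Scd2, Srebf1 and Elovl5 always. The members and lists were chosen with earlier results of these data known, so their counts are descriptions. Alternatives were the background correction (normexp with an offset of 50 on the median pixel signal, since the files hold no mean signal), the scaling, the filter, the probe rule, array weights, the groups fitted, slide, replicate number and each array left out. Chosen after seeing the data were the fit with array position and the fit without the 3 arrays high in choroid plexus and meningeal markers. In the main fit the p-values set a difference of group means against the spread between rats within groups, shared over the 4 groups.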

Additional observations from a re-analysis of the deposited data

Results flagged for a closer look

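In 40 groups of 4 values (10 enzymes in 4 groups), 2 single arrays stood apart from the other 3 of their group by the size of the gap relative to the range of the group, and chance alone marks about 1 group in 20. Acaca in Fe day 5 replicate 4 had a scaled signal of 76, against 94.8 to 99.2 in the other 3 rats of that group. Fads1 in Fe day 15 replicate 4 had a scaled signal of 2800, against 3450 to 3540 in the other 3. That Fe day 15 array also had the lowest value of its group for 7 of the 10 enzymes, against 31.9% of all features. Its microglia marker score was 1. Fe day 30 replicate 3 scored 0.99 but had the highest Fads1 value of its group, 4790. The array with the flagged Acaca value, Fe day 5 replicate 4, scored −0.22. A link between the microglia markers and the flagged values was not tested.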

How the results depend on the processing

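Across 29 alternative settings and 30 gene results (10 enzymes, 3 comparisons with control), none of the 870 values was called, and 36 turned sign. The position term takes its step from the control position to the Fe day 15 position from Fe day 5 replicate 4 alone. That array holds the Acaca value of 76 flagged above. With array position as a term the log2 difference became 0.315 for Acaca and −0.0341 for Fasn at day 15, 0.366 for Acaca at day 30, 0.0393 for Scd at day 5, 0.193 for Fads2 at day 15, and −0.0461 and −0.284 for Elovl1 at days 15 and 30. With slide as a fixed block it became 0.147 for Scd and −0.0322 for Gpam at day 5, and 0.0359 for Fads1 at day 30. Quantile normalization gave 0.0151 for Fads1 at day 30 and −0.0167 for Gpam at day 5, and median scaling −0.0118 for Gpam. The mean of all probes gave −0.0268 for Fasn at day 15, and array weights 0.00523 for Acaca at day 15. Without the 3 arrays high in choroid plexus and meningeal markers, Fads2 was at −0.00984 and Gpam at −0.0507 at day 5. Leaving out one array at a time, the range was −0.0702 to 0.00378 for Acaca, −0.0106 to 0.0739 for Fasn and −0.0342 to 0.205 for Scd at day 15. It was −0.108 to 0.0393 for Scd, −0.0357 to 0.108 for Fads2 and −0.121 to 0.102 for Gpam at day 5, and −0.103 to 0.0938 for Fads1 at day 30. The cause was not tested for these. The median over the enzymes kept its sign at days 15 and 30 and became 0.0193 at day 5 without Fe day 5 replicate 4 or with the position term. Replicate numbers did not pair the rats (24 same-numbered pairs correlated from −0.411 to 0.387, 72 others from −0.472 to 0.415), and with a replicate block 0 enzymes were called and the medians stayed at −0.037, −0.065 and −0.053. Of all features, limma called 0 at day 15 and 2 at day 30, against 184 and 25 with array weights, 15 and 17 with the position term, and 10 at day 15 without Fe day 15 replicate 4. At day 30 quantile normalization called 8, median scaling 9, no filter on dim probes 3, slide as a random block 3, and leaving out Fe day 5 replicate 4 called 9 and Fe day 30 replicate 3 called 4. Other settings lowered the day 30 count to 0. These were slide as a fixed block, only the 2 groups compared, and the fit without the 3 arrays. Leaving out control replicate 1, 2 or 4 or Fe day 5 replicate 3 also gave 0. So did leaving out Fe day 15 replicate 2 or 3, or Fe day 30 replicate 1 or 4. With 4 rats a group, 95% intervals of the enzymes reached up to 0.56 and down to −0.78 on the log2 scale.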
